A study of Mus musculus with 14 samples.

Results

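The genes described here are Hox genes and other transcription factors that lay out the body plan. They were chosen by their platform symbols, which had to be numbered names of the Hox, Meis, Pbx, Tbx, Prrx, Twist, Lhx, Pax, Sox, Gli, Msx and related homeobox families, and by a value on at least 10 of the 14 arrays. Of 35 matching symbols 28 met this minimum, among 9270 genes tested in all. The 28 genes comprise 8 Hox genes (Hoxa4, Hoxa7, Hoxa9, Hoxb2, Hoxb7, Hoxd4, Hoxd8 and Hoxd9), the Hox cofactors Meis2, Meis3, Pbx2 and Pbx3, the homeobox genes Lhx2 and Prrx1, 3 Pax genes, 7 Sox genes, 3 Tbx genes and Twist2. They were measured with 35 probes.

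RNA of mouse fibroblasts homozygous for a disrupted Ptdsr gene (Ptdsr-/-, current symbol Jmjd6) was hybridised together with wild-type fibroblast RNA on each of 14 arrays read in both Cy5 and Cy3. The knockout was labelled with Cy5 on 7 arrays (replicates 1, 3, 4, 7, 8, 9 and 13) and with Cy3 on 7 arrays (replicates 2, 5, 6, 10, 11, 12 and 14). The design names 2 cultures without assigning arrays to them, so the 14 arrays are not 14 independent cultures and the spread given below may be partly technical. Each ratio is set against wild-type RNA, whose own spread between cultures was not measured. The channels are labelled as fibroblasts, while the protocol text also speaks of organs and of a pool from control animals. The strain, the age and the mutant allele beyond its name were not given in the sources used here.

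Values are log2 ratios, centred on the median of each array, so that 1 unit is a 2-fold difference and a negative value means less RNA in the knockout. That direction is likely, not stated. It rests on a coded extreme in the deposited values, which had a positive sign whenever the knockout carried Cy5 (7 arrays) and a negative sign whenever it carried Cy3 (7 arrays). The coded sign alone does not show which genotype is the numerator. Were it the wild type on every array, every ratio given here would change sign and the p-values would stay. A ratio carries no expression level, so neither the abundance of a factor nor the presence of the labelled cell type could be read from these data. The Jmjd6 gene itself had a mean of -0.25 ± 1.04 (SD, n = 14) over its 2 probes and lay below 0 on 12 arrays (limma, adjusted p = 0.934). Its probes disagreed in sign. The first stood at -0.51 ± 1.14 (SD, n = 14), with 12 arrays below 0 and a highest array at 2.92, and the second at 0.27 ± 1.10 (SD, n = 5), with 4 arrays above 0. Whether either probe lies in the disrupted part of the gene was not given in the sources used here, so these values do not check the genotype labels.

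Hox genes encode homeodomain proteins and lie in 4 clusters, named a to d, in the order in which they are used along the head-to-tail axis. Cultured fibroblasts are known to keep a Hox pattern that reflects the site from which they were taken. Meis and Pbx proteins bind DNA together with Hox proteins, T-box, Pax and Sox proteins specify mesoderm, somites, neural tissue and cartilage, and Prrx and Twist proteins act in limb and facial mesenchyme.

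The start regions of 3 genes of the HoxD cluster and of Tbx6 are printed because Hoxd8 and Tbx6 had the smallest p-values of the set, and Hoxd9 and Hoxd4 lie in the same cluster as Hoxd8. Each runs from 250 bases before to 50 bases after the RefSeq start (GRCm38.p6), 5′ to 3′, with capitals at every TAAT on either strand, the core letters that many homeodomains bind. The windows are chr2:74704365-74704664 for Hoxd8, chr2:74697513-74697812 for Hoxd9, chr2:74721728-74722027 for Hoxd4 and chr7:126781233-126781532 for Tbx6, all on the plus strand.
Hoxd8: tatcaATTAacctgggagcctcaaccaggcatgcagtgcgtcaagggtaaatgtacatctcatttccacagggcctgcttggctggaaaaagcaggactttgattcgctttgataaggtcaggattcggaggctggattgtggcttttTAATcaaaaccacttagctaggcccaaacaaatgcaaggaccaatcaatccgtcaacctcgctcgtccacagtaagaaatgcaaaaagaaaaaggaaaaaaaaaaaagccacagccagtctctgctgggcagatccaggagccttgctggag
Hoxd9: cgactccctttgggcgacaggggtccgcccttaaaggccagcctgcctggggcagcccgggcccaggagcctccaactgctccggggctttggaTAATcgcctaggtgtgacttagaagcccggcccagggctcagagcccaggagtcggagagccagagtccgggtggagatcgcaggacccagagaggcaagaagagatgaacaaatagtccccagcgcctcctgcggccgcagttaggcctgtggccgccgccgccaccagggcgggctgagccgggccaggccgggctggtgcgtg
Hoxd4: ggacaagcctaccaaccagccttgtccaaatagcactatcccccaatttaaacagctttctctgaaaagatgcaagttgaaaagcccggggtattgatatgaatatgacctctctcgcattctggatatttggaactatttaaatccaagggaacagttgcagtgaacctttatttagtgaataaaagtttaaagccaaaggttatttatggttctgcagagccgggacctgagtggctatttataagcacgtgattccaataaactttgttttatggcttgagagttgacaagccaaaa
Tbx6: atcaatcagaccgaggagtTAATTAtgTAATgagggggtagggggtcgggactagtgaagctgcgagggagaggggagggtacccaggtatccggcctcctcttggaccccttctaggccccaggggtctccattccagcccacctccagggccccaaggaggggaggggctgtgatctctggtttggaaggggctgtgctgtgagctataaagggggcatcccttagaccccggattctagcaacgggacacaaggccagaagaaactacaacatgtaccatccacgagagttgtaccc

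TAAT occurred 2 times in the Hoxd8 window, 1 time in that of Hoxd9, 3 times in that of Tbx6 and 0 times in that of Hoxd4. It was present in 58% of all 32851 RefSeq start windows of this length, so a match is common. Of the 28 genes, 19 matched a start window, and 14 of their 27 windows (51.9%) held TAAT. TGATNNAT, a composite of the letters bound by Pbx and Hox proteins, was found in 8.85% of all windows and in 2 of the 27, those of Tbx6 and Tbx10. Searches on both strands also covered CANNTG, present in 72.3% of all windows and in 59.3% of the 27, and TATAAA, present in 13.6% and 18.5%. TATAAA stood in the Tbx6 and Hoxd4 windows. The Hoxd9 window held 20 CpG dinucleotides and that of Hoxd4 held 4, against a median of 7 over all windows.

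No gene of the set passed the test of knockout against wild type. By limma with Benjamini-Hochberg adjustment over all 9270 genes, 0 of 28 were called at an adjusted p below 0.05, where 0.0863% of all genes were called. The smallest adjusted p was 0.753. At an unadjusted p below 0.05 there were 3 of 28 (10.7%), against 5.35% of all genes. All 3 lay below 0 (2.94% of all genes did so), and 0 lay above (2.41% of all genes). A count of 3 among 28 genes is too small to be read as a departure from this background. With the ratios of every array reversed, the same 3 genes would lie above 0. The genes and the split also depend on the direction of the arrays whose knockout carried Cy3. If the arrays whose knockout carried Cy3 had not been turned before deposit, the 3 genes would be Hoxd9 (higher), Sox17 and Pax2 (both lower), and Hoxd8, Tbx6 and Pax3 would not be among them.

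Fitted means, which weight both dye orientations equally, ran from -0.62 for Hoxd9 to 0.41 for Hoxb7. Their median was -0.08, against 0.002 over all genes tested, and 19 lay below 0 and 9 above. Among all genes 49.6% lay below 0. The median over the set was below 0 on 10 of the 14 arrays and above 0 on 4, and it varied between arrays with an SD of 0.18. Of the 28 means 21 lay within 0.25 of 0. With the Cy3 arrays turned, the fitted means ran from -1.08 for Pax2 to 0.95 for Hoxd9, with a median of -0.04, and 15 lay below 0 and 13 above.

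**Figure D1:**
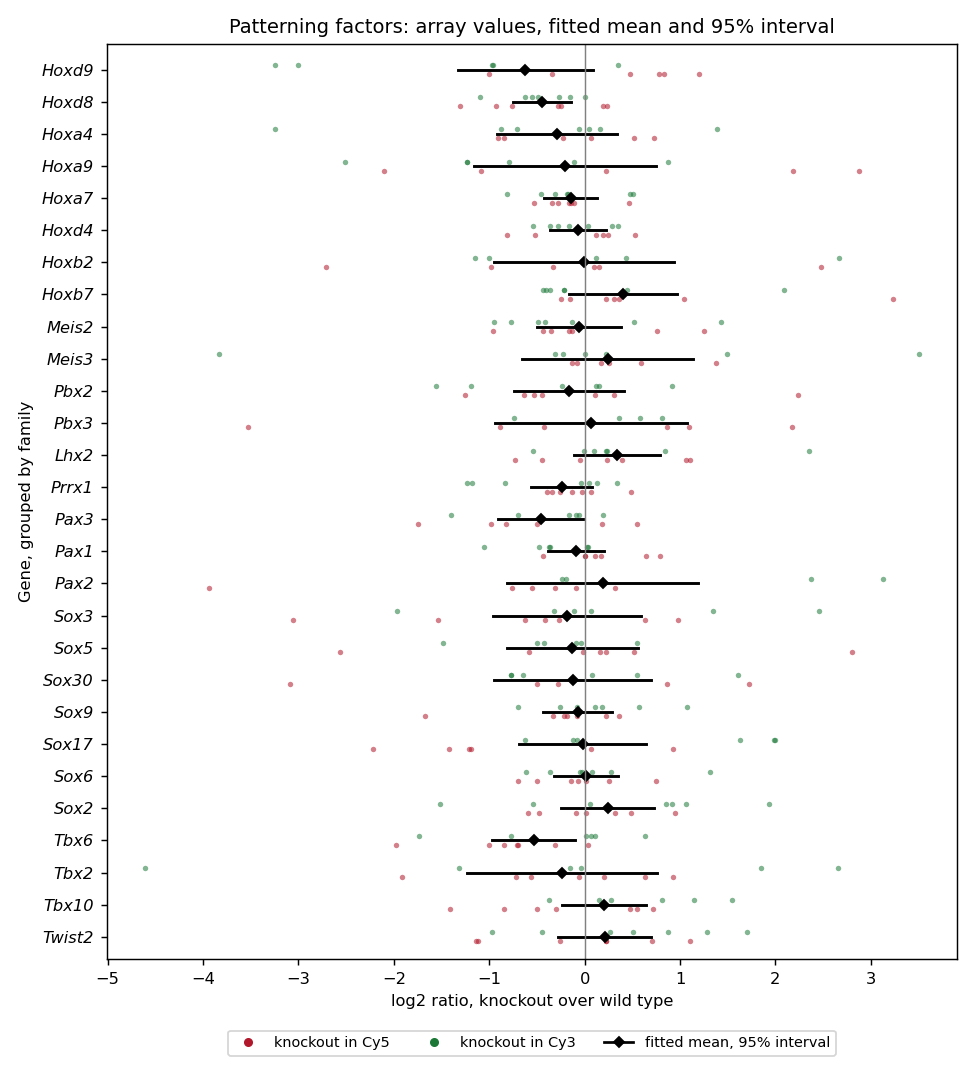
Each row is 1 of the 28 patterning genes, with its log2 ratio of knockout over wild type on every array (red, knockout in Cy5; green, knockout in Cy3) and the fitted mean with its 95% interval in black. The intervals of Hoxd8, Tbx6 and Pax3 lie wholly below 0, those of the other 25 genes include 0, and the array farthest from 0, at -4.61, belongs to Tbx2.

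Hoxd8, a gene of the middle part of the HoxD cluster, had the smallest p of the set. Its values ran from -1.31 on replicate 4 through a median of -0.38 to 0.24 on replicate 7. It lay below 0 on 11 of 14 arrays. Replicates 7 and 8 were above 0, and replicate 14 stood at 0.001. The mean was -0.45 ± 0.47 (SD, n = 14), a 1.37-fold lower ratio, with a 95% interval from -0.76 to -0.14 (limma, unadjusted p = 0.00674, adjusted p = 0.753). Both dye orientations gave nearly the same mean. Arrays whose knockout carried Cy5 averaged -0.44 ± 0.58 (SD, n = 7), and those whose knockout carried Cy3 averaged -0.46 ± 0.36 (SD, n = 7). All of replicates 1 to 6 were below 0, with a mean of -0.70 ± 0.40 (SD, n = 6). Replicates 7 to 12 had a mean of -0.31 ± 0.51 (SD, n = 6). When single arrays were left out in turn, the mean log2 ratio of Hoxd8 stayed between -0.51 and -0.38, with an unadjusted p of at most 0.0199. If the arrays with the knockout in Cy3 had not been turned before deposit, the fitted mean would be 0.01.

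Its cluster neighbours gave no common picture. Hoxd9, the next gene towards the tail end of the cluster, had the lowest fitted mean of the set at -0.62. Values ran from -3.25 on replicate 2 through a median of -0.34 to 1.2 on replicate 7. It was below 0 on 6 of 11 arrays and above on 5, and its 95% interval of -1.33 to 0.09 included 0 (limma, unadjusted p = 0.081, adjusted p = 0.901). The mean log2 ratio of Hoxd9 was -0.41 without replicate 2 and -0.86 without replicate 11 (unadjusted p = 0.216 and 0.0149). With the number ranges of replicates as a fixed block it was -1.10 (unadjusted p = 0.0141), and with the Cy3 arrays turned it was 0.95. Hoxd4, an anterior gene of the cluster, stood at -0.07 ± 0.41 (SD, n = 13), with 6 arrays below 0 and 7 above. On the 11 arrays that measured both Hoxd8 and Hoxd9, the signs matched on 6.

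The 3 HoxA genes had means below 0, and none passed the test. Hoxa7 was the most evenly measured gene of the set, with the smallest SD over arrays, at -0.15 ± 0.39 (SD, n = 14). It ran from -0.81 on replicate 10 through a median of -0.18 to 0.50 on replicate 2, and was below 0 on 11 of 14 arrays. Its 95% interval of -0.42 to 0.13 leaves out a change of 1.5-fold in either direction. Hoxa4 had a fitted mean of -0.29 with a single array, replicate 2, at -3.25, and without that array the mean was -0.06. Hoxa9, a posterior gene, had a fitted mean of -0.21 with values from -2.51 to 2.87, so a 2-fold lower ratio lay inside its interval (-1.16 to 0.75). Its sign rested on single arrays, since the mean log2 ratio of Hoxa9 was 0.11 without replicate 8 and -0.51 without replicate 9.

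Of the HoxB genes, Hoxb2 was at -0.0017 ± 0.43 (fitted mean and SE, n = 11), with arrays from -2.71 to 2.67. Hoxb7 had the highest fitted mean of the set at 0.41 ± 0.27 (SE, n = 14), but its median was 0.04 and 7 arrays lay on each side of 0. Replicates 9 and 10, at 3.23 and 2.08, stood far above the others, and the mean log2 ratio of Hoxb7 was 0.19 without replicate 9 and 0.24 without replicate 10. Ordered by paralogue number, the fitted means were -0.0017 for Hoxb2, -0.29 for Hoxa4, -0.07 for Hoxd4, -0.15 for Hoxa7, 0.41 for Hoxb7, -0.45 for Hoxd8, -0.21 for Hoxa9 and -0.62 for Hoxd9. The 95% intervals overlapped within each pair of paralogues (Hoxa4 and Hoxd4, Hoxa7 and Hoxb7, Hoxa9 and Hoxd9), and the differences themselves were not tested.

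**Figure D2:**
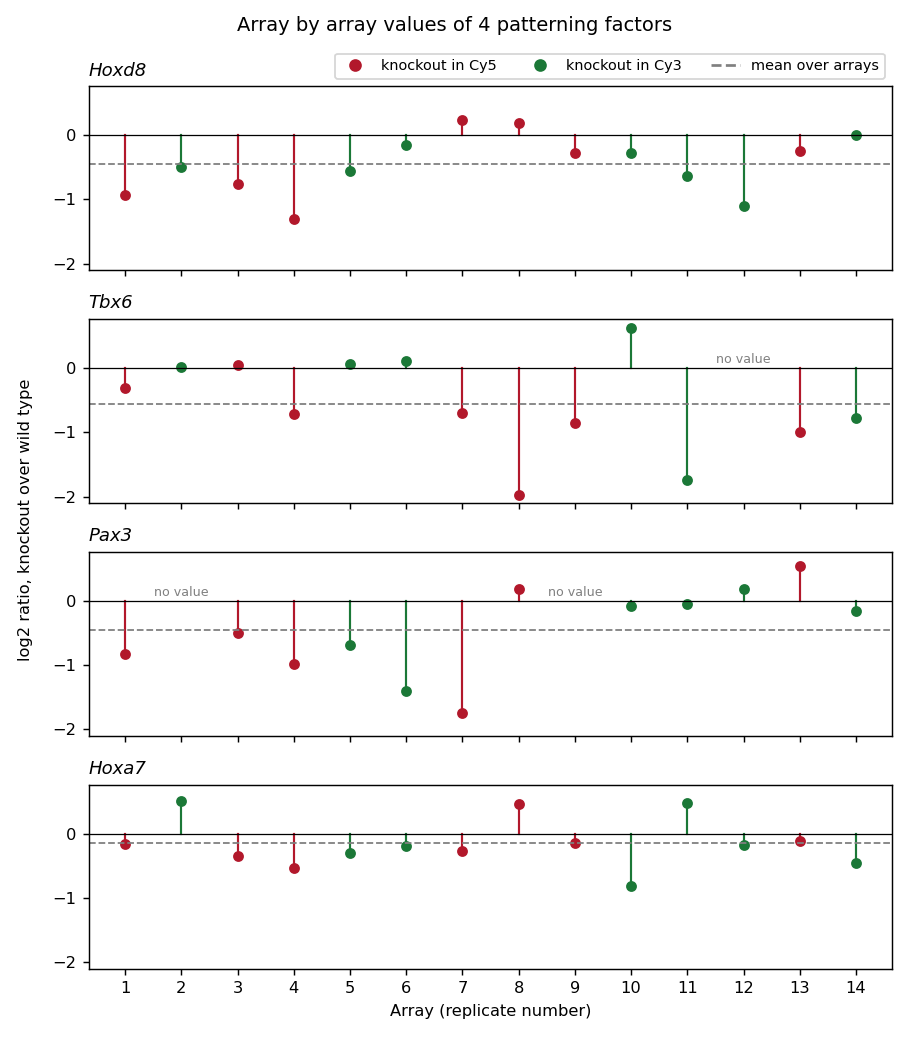
Log2 ratios of Hoxd8, Tbx6, Pax3 and Hoxa7 on each array by replicate number, coloured by the dye of the knockout, with a dashed line at the mean over arrays. Hoxd8 lies below 0 on all of replicates 1 to 6, Pax3 reaches its lowest value on replicate 7, and Tbx6 has its lowest values on replicates 8 and 11.

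None of the 4 Hox cofactors passed the test. Meis2, a partner of Hox proteins in limb and hindbrain, had a fitted mean of -0.06 and lay below 0 on 10 of 14 arrays, with values up to 1.43 on replicate 11. Meis3 stood at 0.24 ± 0.42 (SE, n = 13), spanning -3.83 on replicate 2 to 3.50 on replicate 6, with the other arrays between -0.32 and 1.49. Pbx2 and Pbx3, cofactors that lengthen the site a Hox protein reads, had fitted means of -0.16 and 0.07. The Pbx3 interval reached from -0.94 to 1.08.

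Among the T-box genes, Tbx6, which directs presomitic mesoderm, had the second smallest p. Its values ran from -1.97 on replicate 8 through a median of -0.70 to 0.63 on replicate 10. Below 0 were 8 of 13 arrays, among them replicates 8 and 11 with the lowest values. The fitted mean was -0.53 ± 0.20 (SE, n = 13), 1.45-fold lower, with a 95% interval of -0.97 to -0.10 (limma, unadjusted p = 0.0189, adjusted p = 0.842). Arrays whose knockout carried Cy5 averaged -0.79 ± 0.63 (SD, n = 7), against -0.28 ± 0.84 (SD, n = 6) for Cy3. Replicates 1 to 6 averaged -0.13 ± 0.32 (SD, n = 6), and replicates 7 to 12 averaged -0.93 ± 1.03 (SD, n = 5). Replicate 12 held the coded extreme, the only such cell among the 28 genes, and was set to missing. Taken as deposited, it moved the fitted mean to -1.68 and the unadjusted p to 0.144. Without replicate 11 the mean log2 ratio of Tbx6 was -0.39 (unadjusted p = 0.0472). With the Cy3 arrays turned it was -0.25 (unadjusted p = 0.233).

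Tbx2, a repressor of cell cycle inhibitors and a limb and heart factor, had a fitted mean of -0.24 with arrays from -4.61 on replicate 2 to 2.66 on replicate 11. Without replicate 2 its mean was above 0, at 0.19. Replicates 1 to 6 averaged -1.33 ± 1.74 (SD, n = 6) and replicates 7 to 12 averaged 0.71 ± 1.42 (SD, n = 6), a difference that was not tested. Tbx10 stood at 0.20 ± 0.21 (SE, n = 13).

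Of the Pax genes, Pax3, a factor of muscle precursors and neural crest, was the third at an unadjusted p below 0.05. Its values ran from -1.75 on replicate 7 through a median of -0.33 to 0.55 on replicate 13. It was below 0 on 9 of 12 arrays, and the highest ones were replicates 8, 12 and 13. The mean was -0.46 ± 0.69 (SD, n = 12), 1.38-fold lower, with a 95% interval from -0.90 to -0.02 (limma, unadjusted p = 0.0426, adjusted p = 0.901). For the mean log2 ratio of Pax3, leaving out any 1 of replicates 1, 3, 4, 5, 6, 7 and 14 moved the unadjusted p above 0.05, up to 0.103. With the Cy3 arrays turned that mean was -0.09 (unadjusted p = 0.659). Pax1, which acts in the ventral somite, was narrowly measured at -0.09 (95% interval -0.39 to 0.20). Pax2, a kidney and midbrain factor, had the widest SD of the set, 1.89, and a fitted mean of 0.19.

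The 7 Sox genes had fitted means between -0.18 and 0.24. Sox9, the regulator of cartilage formation, stood at -0.07 with an interval from -0.43 to 0.29, and its partner Sox6 at 0.02 with an interval from -0.32 to 0.35. Sox5, which acts with Sox6 and Sox9 in chondrocytes, had a fitted mean of -0.13, with replicates 4 and 13 at -2.57 and 2.81. Sox2, known for its role in pluripotent and neural progenitor cells, had a fitted mean of 0.24 and was above 0 on 9 of 14 arrays. Sox3, Sox17 and Sox30 lay at -0.18, -0.02 and -0.12, with SDs between 1.34 and 1.44. None of the 7 intervals reached a 2-fold change. Those of Sox2, Sox3, Sox6 and Sox9 belong to averages of 2 probes, and the single probes of Sox3 had SDs of 1.68 and 2.21.

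Prrx1, Twist2 and Lhx2 did not pass the test either. Prrx1, a marker of limb and facial mesenchyme, was at -0.24 ± 0.52 (SD, n = 14). It ran from -1.24 on replicate 11 to 0.48 on replicate 13, and the interval of -0.56 to 0.08 leaves out a 1.5-fold change in either direction. Twist2, a bHLH factor of dermal fibroblast precursors, was at 0.21 ± 0.23 (SE, n = 14) and above 0 on 9 of 14 arrays. Lhx2, a LIM homeobox factor of limb and forebrain, was at 0.34 ± 0.21 (SE, n = 14) and above 0 on 9 arrays. Its highest value, 2.35, was on replicate 12.

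The intervals show what these arrays could resolve when each array is taken as independent. The design names 2 cultures, so the intervals may be too narrow for a difference between genotypes. For 22 of 28 genes the 95% interval lay within 1 log2 unit of 0, as it did for 81.2% of all genes tested, so that a 2-fold difference in either direction lay outside it. The 6 other genes were Hoxa9, Hoxd9, Meis3, Pax2, Pbx3 and Tbx2. For 7 genes (Hoxa7, Hoxd4, Meis2, Pax1, Prrx1, Sox6 and Sox9) the interval lay within 1.5-fold, against 42.8% of all genes. Of these, Meis2, Sox6 and Sox9 are averages of 2 probes, and their intervals do not show the disagreement between probes. The Sox6 probes had SDs of 0.97 and 0.68, against 0.54 for their average, and matched in sign on 2 of 11 arrays. The median SD over arrays was 0.95 for the set and 0.81 for all genes. None of the 28 had the same sign on all arrays that measured it, a pattern shown by 0.237% of all genes.

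Many spots of the set gave ratios of small whole numbers, a form of value that can arise where signals are counted in few units. Spot intensities were not analysed here. Such ratios, built from whole numbers no larger than 10 and allowing a tolerance of 0.0011 log2 units, made up 22.6% of a gene's values at the median of the set and 16.7% at the median of all genes. Hoxd8 and Pax1 had 0% and SDs of 0.47 and 0.49, whereas Hoxd9 had 63.6% and Pbx3 80%, with SDs of 1.5 and 1.55. Of the 28 genes 14 were above the all-gene median in both the SD and this share, and 8 were below both. The 6 others were divided. Tbx2, Meis3 and Sox30 had wide spreads and few such ratios, with shares of 7.69%, 7.69% and 9.09% and SDs of 1.79, 1.61 and 1.34. Meis2, Sox9 and Tbx6 had the reverse, with shares of 20%, 22.2% and 23.1% and SDs of 0.76, 0.63 and 0.75. Meis2 and Sox9 are averages of 2 probes, which can narrow the SD. Their single probes had SDs of 0.69 and 0.94 for Meis2 and of 0.93 and 0.44 for Sox9. Replicates 1 and 2 were the arrays with most missing values (5805 and 6875 of 20355). They held the lowest or highest value of a gene in 12 of 56 cases, 5 on replicate 1 and 7 on replicate 2. Replicate 13 held 9, replicate 4 held 6, and replicates 7, 10 and 12 held 5 each. Whether missing values have a part in these counts was not tested.

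**Figure D3:**
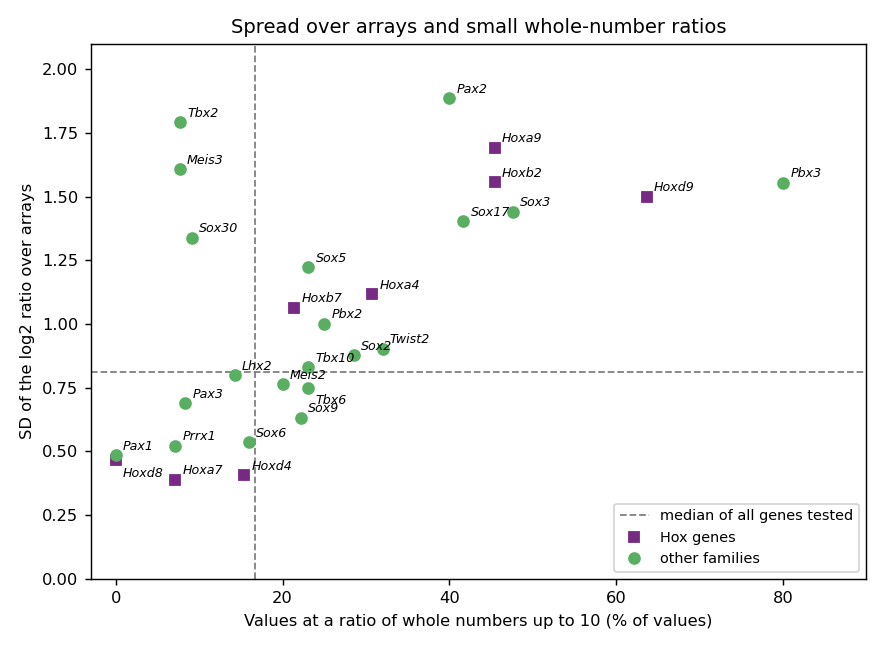
SD of the log2 ratio over arrays against the share of values that equal a ratio of whole numbers up to 10, for each of the 28 genes (purple squares, Hox genes; green circles, other families), with dashed lines at the medians of all genes tested (0.81 and 16.7%). Hoxd8, Hoxa7, Pax1 and Prrx1 sit at the lower left, Pax2, Hoxa9, Hoxb2, Hoxd9 and Pbx3 at the upper right, and Tbx2, Meis3 and Sox30 combine a wide spread with few such ratios.

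The dye orientation was tested in the same model. By limma 0 of 28 genes had a dye term at an adjusted p below 0.05 (0.0431% of all genes did), and 3 did at an unadjusted p below 0.05, against 7.43% of all genes. Hoxd9 averaged 0.33 ± 0.83 (SD, n = 6) when the knockout carried Cy5 and -1.57 ± 1.52 (SD, n = 5) when it carried Cy3, where replicates 2 and 6 stood at -3.25 and -3. Sox17, an endoderm and endothelial factor, averaged -0.84 ± 1.13 (SD, n = 6) and 0.80 ± 1.2 (SD, n = 6). Pax2 averaged -0.89 ± 1.54 (SD, n = 6) and 1.27 ± 1.74 (SD, n = 4). Unadjusted p-values of the dye term were 0.013 for Hoxd9, 0.0194 for Sox17 and 0.037 for Pax2, with adjusted p from 0.551 to 0.619. The count was 5 without replicate 11, where Pax1 and Tbx6 joined, and 2 without replicate 14. The dye term of Pax2 no longer had an unadjusted p below 0.05 without replicate 1, 5, 8 or 14 (up to 0.13), whereas those of Hoxd9 and Sox17 had one whichever array was left out. The means of 14 of the 28 genes had opposite signs in the orientations, 50% against 52.9% of all genes, while 10 were below 0 in both and 4 above 0 in both.

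**Figure D4:**
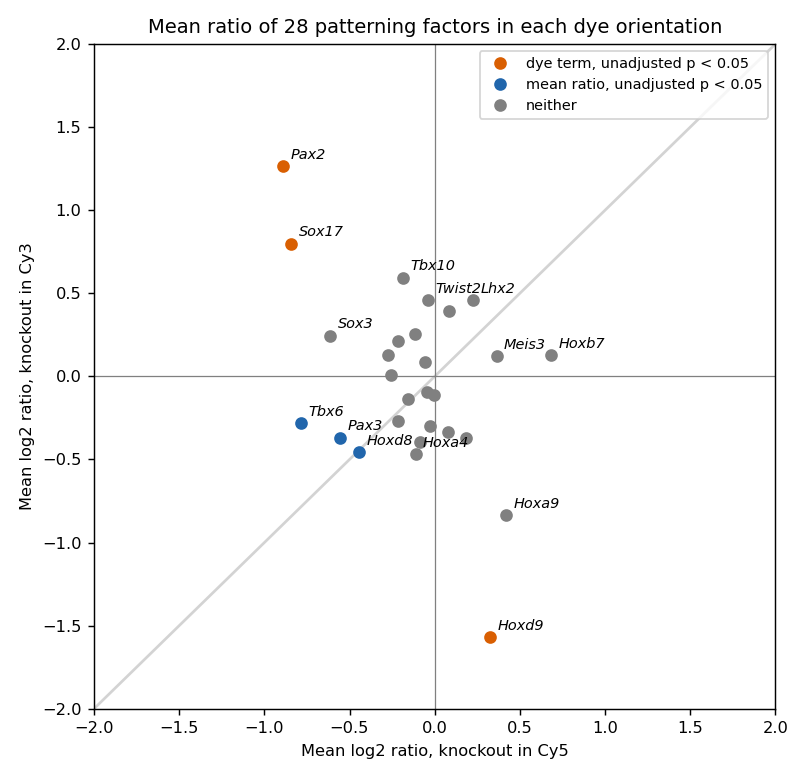
Mean log2 ratio of each of the 28 genes by dye of the knockout, Cy5 (horizontal) and Cy3 (vertical), with the diagonal of equal means. Hoxd8 lies on the diagonal at about the same value in both orientations, and Hoxd9, Sox17 and Pax2 (orange) lie far from it on opposite sides of 0.

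A second probe was a check available for 7 of the genes. Over all arrays on which both probes of a gene had a value, they had the same sign in 29 of 67 cases. Twist2 matched on 3 of 11 arrays, with probe means of 0.35 ± 2.30 (SD, n = 11) and 0.05 ± 0.50 (SD, n = 14). Sox6 matched on 2 of 11, Pbx2 on 4 of 11 and Sox9 on 6 of 13, whereas Meis2 matched on 5 of 6, Sox2 on 4 of 7 and Sox3 on 5 of 8. For Pbx2, the probe means had opposite signs, at -0.52 ± 1.95 (SD, n = 11) and 0.15 ± 0.54 (SD, n = 13). Over all 1615 genes of the series with 2 probes that shared at least 10 arrays, the median share of arrays with matching signs was 50%, against 31.8% for the 4 genes of the set with as many shared arrays. A share of 50% is about what probes with unrelated signs would give. The median absolute difference between the probes was 0.68 log2 units over the 1615 genes and 0.78 for those 4. The other genes of the set had no second probe, so this check was not available for them. The part of a transcript that each probe covers was not given in the sources used here. Cross-hybridisation between related family members was not measured.

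**Figure D5:**
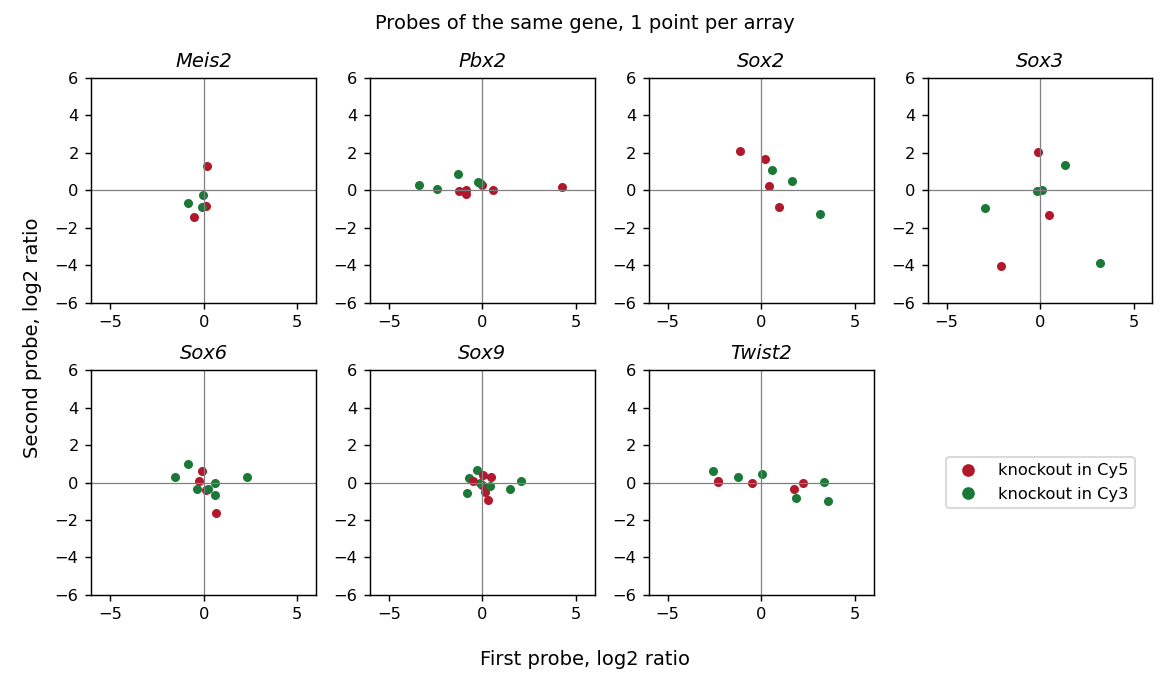
Log2 ratio of the second probe against that of the first, 1 point per array, for the 7 genes with 2 probes. Points of 1 gene with matching probes would fall in the lower left and upper right quadrants, and 29 of 67 points do.

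Other genes of patterning pathways were counted in the same fit, where 0.0863% of all genes were called and 5.35% had an unadjusted p below 0.05. Of 28 measured patterning factors outside the set, among them Gata2, Runx1, Snai2, Irx3 and Zic1, 0 were called by limma and 0 had an unadjusted p below 0.05, with a median mean ratio of -0.04. In the Hedgehog pathway 0 of 9 were called and 1 had an unadjusted p below 0.05. This was Gas1, a membrane protein that binds Hedgehog ligands, at -0.47 ± 0.44 (SD, n = 14) and below 0 on 12 arrays (limma, adjusted p = 0.604). The retinoic acid pathway, an inducer of anterior Hox genes, had 0 of 10 called and 0 at an unadjusted p below 0.05. Polycomb and trithorax genes hold Hox clusters silent or active, and were counted together with other chromatin regulators (Ctcf, Hdac1 and Hdac2). Of these 22 genes 0 were called and 0 had an unadjusted p below 0.05. Their median was 0.10, and 17 means lay above 0 and 5 (22.7%) below. Among all 9270 genes 4668 lay above 0 and 49.6% below. The difference between these shares was not tested.

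Among BMP and Wnt pathway genes 0 of 25 were called by limma, and 5 of 25 (20%) had an unadjusted p below 0.05, all lower, against 5.35% of all genes in either direction and 2.94% lower. These were the Wnt antagonist Sfrp1 at -0.64 ± 0.81 (SD, n = 14), the secreted protein Dkk3 at -0.55 ± 0.91 (SD, n = 14), the BMP target Id1 at -0.33 ± 0.38 (SD, n = 14), the inhibitory Smad6 at -0.62 ± 0.90 (SD, n = 10) and the receptor Bmpr1b at -0.52 ± 0.74 (SD, n = 13). Their adjusted p lay between 0.834 and 0.901. The median of the 25 was -0.10.

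Marker genes of cell types were read the same way, against the same 0.0863% of all genes called, 5.35% at an unadjusted p below 0.05, 2.94% lower and 2.41% higher. Of 12 fibroblast markers 0 were called, 2 were lower at an unadjusted p below 0.05 (Dcn at -0.65 and Postn at -0.33), and the median was -0.12. All 5 macrophage markers lay below 0 (median -0.52, from -1.62 to -0.28), and Lyz2 was called (limma, adjusted p = 0.0104), while Cd68, at -0.51 ± 0.55 (SD, n = 13), was lower at an unadjusted p below 0.05. The endothelial, epithelial, muscle, neural and cartilage or bone lists held 26 measured genes with 0 called and 4 at an unadjusted p below 0.05, namely Eng, Krt14 and Myog (-0.34, -0.48 and -0.30) and, above 0, Nes (0.59). Whether these markers have a part in the values of Hoxd8, Tbx6 or Pax3 was not tested. In a culture, fewer cells that express a gene and less RNA per cell cannot be told apart.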

How the data were processed

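Log2 ratios deposited by the authors were used, for 20355 probes per array. The base was read from the values, since the commonest steps lay 1 unit (a ratio of 2 to 1) from the commonest value. Information on scanner, background correction, normalization and genome build was not given in the sources used here. Each array repeated 1 coded extreme, 16.6 units from its commonest value, and values beyond 12 units were set to missing. Arrays were centred on their medians. Probes were named from GEO's platform annotation (14030 with 1 symbol, 5 with several and left out, 6320 not listed) and averaged per gene. Genes with values on 10 or more arrays, at least 4 per dye orientation, were tested.

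Limma 3.58.1 in R 4.3.3 fitted an intercept and a dye term (lmFit, eBayes), with 95% moderated intervals. Code was tested on simulated data. Genes named are all members at an unadjusted p below 0.05, the extremes in mean and SD, all Hox genes, and list genes at that p. The members, lists and number ranges were chosen with earlier results of these data known. The number of arrays limits the precision, and spot intensities were not analysed here.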

Additional observations from a re-analysis of the deposited data

How the results depend on the processing

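No member was called by limma under any of 32 alternative settings, where the smallest adjusted p was 0.390. The number of members at an unadjusted p below 0.05, 3 of 28 here, was 1 of the 10 genes with values on all 14 arrays, 1 from the 7 arrays whose knockout carried Cy5, 5 (4 lower, 1 higher) with array weights and 2 to 4 when single arrays were left out. The number with a dye term at that p, 3 here, was 0 of the 10 genes with values on all 14 arrays and 2 to 5 when single arrays were left out, the 5 without replicate 11. The median of the means stayed below 0, from -0.14 to -0.02. Of 850 values of single genes under these settings, 763 kept their sign. Turning the arrays with the knockout in Cy3 moved Hoxd9 to 0.95, and keeping the coded extreme moved Tbx6 to -1.68. The mean log2 ratio of Pax3 passed an unadjusted p of 0.05 with neither block of replicate number ranges (0.14 as a fixed and 0.0788 as a random block), while Hoxd8 and Tbx6 passed it with both. The mean log2 ratio of Hoxd9 passed it with the fixed block (-1.10, 0.0141), with array weights (-0.67, 0.0406) and on the arrays whose knockout carried Cy3 (-1.57, 0.0248). A dye count without a dye term does not exist, and the test per probe gave counts only. Of the 6 genes whose interval reached beyond 1 log2 unit, Hoxa9, Hoxd9, Pax2 and Pbx3 had values on only 10 or 11 arrays.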

Other observations

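The 7 symbols below the minimum of 10 arrays were Gli1, Hoxb1, Hoxc9, Msx1, Pax6, Sox11 and Twist1. They were not tested in the main fit. With a minimum of 6 arrays, all 35 symbols were tested by limma and 0 were called. An unadjusted p below 0.05 was found for 4 of the 35 (3 lower, 1 higher), against 5.35% of all genes in the main fit. A dye term at that p was found for 4. At the limit itself, Pbx3 and Pax2 had 10 values, with arithmetic means of 0.03 and -0.03, and Hoxc9 and Pax6 had 9, with 0.34 and 0.40. Twist1, a bHLH factor of cranial and limb mesenchyme, had the fewest values, 7, of which 6 lay above 0, from -1.24 on replicate 12 to 3.43 on replicate 11. Of its values 71.4% were ratios of small whole numbers. Msx1, a homeobox factor of limb and facial mesenchyme, was above 0 on 6 of 8 arrays, from -1.49 to 3.11. Gli1, a transcriptional target and effector of Hedgehog signalling, lay on each side of 0 on 4 of 8 arrays, as did the hindbrain gene Hoxb1. Hoxc9, the only HoxC gene among the 35 symbols, ran from -2.32 on replicate 13 to 4.14 on replicate 2. Pax6, an eye and forebrain factor, ran from -0.66 to 1.25, and Sox11, a factor of neural and mesenchymal progenitors, from -3.90 to 1.26. For each of these genes the arrays lay on both sides of 0.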
